A study of Mus musculus with 24 samples.

Results

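The lysosomal cathepsins are described here in whole lung of Marfan and wild-type mice given sildenafil or vehicle. The 10 genes Ctsa, Ctsb, Ctsc, Ctsd, Ctse, Ctsh, Ctsk, Ctsl, Ctss and Ctsz were found by symbol in the array's annotation. Of these, 9 were measured, each by 1 probe set, among 19505 genes in all. Ctsd, which encodes the aspartic protease cathepsin D, was not analysed here.

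The groups were Marfan mice given sildenafil (5 arrays), Marfan mice given vehicle (5 arrays), wild-type mice given sildenafil (4 arrays) and wild-type mice given vehicle (6 arrays). Marfan syndrome is a heritable connective tissue disease due to defects of fibrillin-1, and sildenafil inhibits phosphodiesterase 5. All lungs were taken at the age of 6 months, and treatment through the drinking water had started at 6 weeks. The sources used here do not give the Marfan allele, the strain or the sex of the mice. Each array is named by its group and its running number in the study.

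Cathepsins digest proteins that reach the lysosome, an acidic compartment kept so by a proton pump. Most are cysteine proteases held in check by cystatins. Macrophages are rich in them, and several can cut elastin or collagen when released, which is why they are studied in lungs whose elastic fibres are damaged. Within the family, Ctsk, Ctsl and Ctss cut inside protein chains, Ctsb, Ctsa and Ctsz also or only trim the carboxyl end, Ctsc and Ctsh trim the amino end, and Ctse is an aspartic protease of endosomes.

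All values are log2 intensities after quantile normalization over the 20 arrays, and a difference of 1 is a factor of 2. A level of 1 gene cannot be set against that of another. Before normalization the arrays differed in brightness. Their deposited medians were 5.73 to 6.45 in Marfan sildenafil, 5.80 to 6.13 in Marfan vehicle, 5.87 to 6.19 in wild-type sildenafil and 5.32 to 5.83 in wild-type vehicle lungs. Over 15 markers of alveolar type 2 cells, the mean log2 level lay between 11.1 and 11.5 on every array, so each array carried the markers of lung tissue. The number of arrays limits the precision of all differences, and nothing in the labels pairs the mice or gives a batch.

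The array Marfan sildenafil 9 stood apart from the other 19 and carried the highest level of 7 of the 9 cathepsins. Among all genes, 12.4% were higher on this array than on every other, against 77.8% of the cathepsins. Ctsk, a strong collagenase best known from bone-resorbing osteoclasts, was 11.58 there and 6.87 to 8.45 on the other arrays. Its distance of 4.28 from the median of the others, a factor of 19.5, ranked 14 among the 19505 genes. Ctsl, a general endopeptidase of the lysosome, lay 2.04 above that median, a factor of 4.12. Ctsz, a carboxypeptidase, lay 1.79 above it, and Ctss, which trims the invariant chain of MHC class II and can digest elastin, lay 1.58 above it. Ctsb and Ctsa, carboxypeptidases of most cells, lay 1.12 and 1.11 above it. Ctsc, the dipeptidyl peptidase that activates serine proteases of granulocytes and mast cells, was 0.37 above it.

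The other two members did not share this. Ctsh, an aminopeptidase that helps to mature surfactant protein B in alveolar type 2 cells, was 10.42 on Marfan sildenafil 9 and 9.71 to 10.54 on the others. Ctse was 5.62 there and 4.99 to 7.31 on the others. Both values lay inside the range of the other arrays. The array was a single sample, so these distances have no replicate and no test.

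Other lysosomal genes were also high on that array. Of 40 measured hydrolases other than cathepsins, 27 were above all other arrays, with a median distance of 0.67, and Gla, the alpha-galactosidase, had the largest at 2.60. Of 29 lysosomal membrane genes, 19 were above all others, led by the glycoprotein gene Gpnmb at 4.98. Of 24 proton pump subunits, 15 were above all others, led by Atp6v0d2 at 2.57. Gpnmb and Atp6v0d2 also stand on the macrophage lists used below, the 2 genes that a lysosomal list shares with them. The inhibitor gene Cstb, which encodes cystatin B, lay 1.95 above the median of the others, while the 22 measured cystatins and related inhibitors had a median of -0.09. A list of 15 other cathepsins and relatives, among them the cathepsin-like genes Tinag and Tinagl1, had none above all others and a median of -0.19. In Marfan vehicle lungs the mean log2 level was 4.688 for this list and 4.899 for the inhibitors, against 9.409 for the measured cathepsins. A rise can go unseen in genes of low signal, so the medians of these lists do not show that their genes stayed unchanged.

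**Figure D1:**
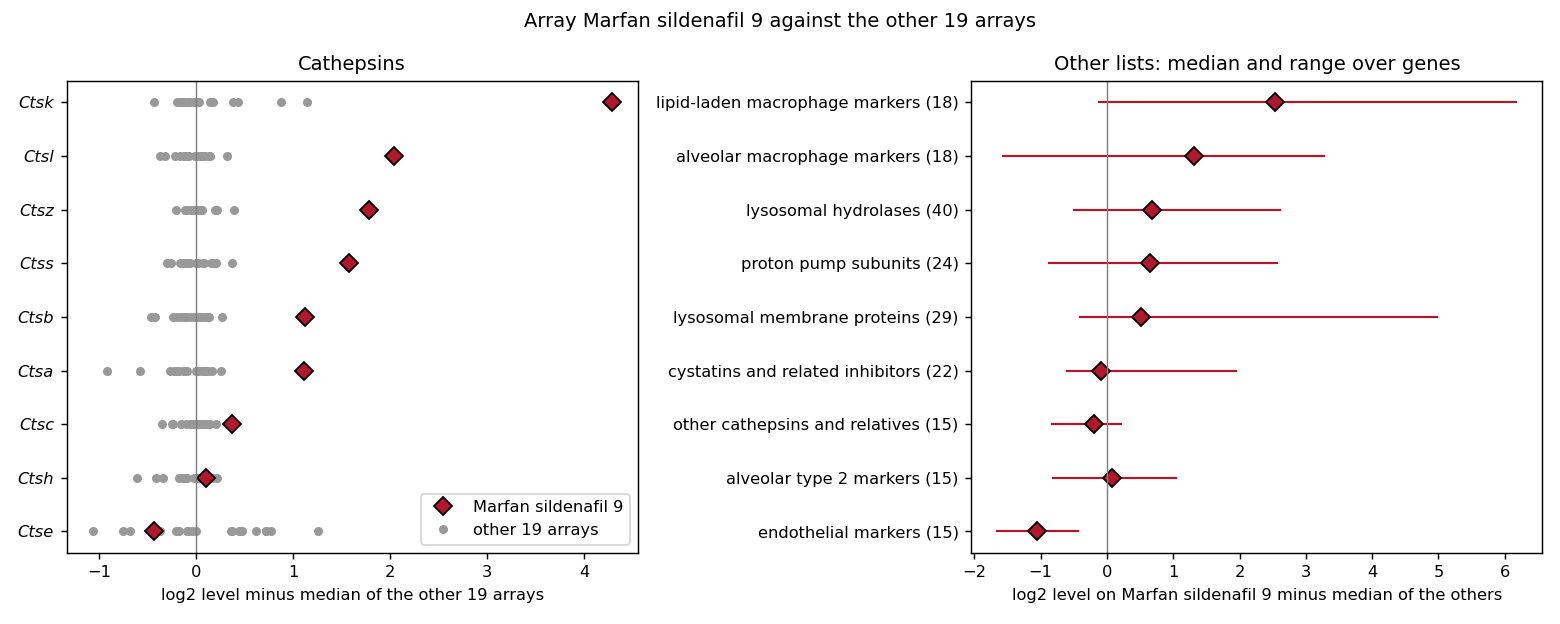
Log2 level on the array Marfan sildenafil 9 minus the median of the other 19 arrays, for each cathepsin (left, with the other arrays in grey) and for lists of other genes (right, median as a diamond and range over the genes as a line, number of genes in brackets). Ctsk stands 4.28 above the others, Ctsh and Ctse lie among them, and the 18 lipid-laden macrophage markers have a median of 2.54.

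Markers of macrophages moved with the cathepsins on that array. Of 18 genes on the list of lipid-laden macrophage markers, 16 were above all other arrays with a median distance of 2.54. Among them were Arg1 at 6.18 and Mmp12, a macrophage elastase, at 5.83. The name is only that of the list, and its values do not show lipid in the cells. Of 18 alveolar macrophage markers, 11 were above all others with a median distance of 1.31. Endothelial markers had a median of -1.06, with 14 of 15 below all other arrays, and 12 cardiac muscle markers had one of -2.55. Among all 19505 genes, 2683 were below all other arrays. So were 12 of 14 alveolar type 1, 10 of 13 ciliated and 8 of 10 smooth muscle markers, but 1 of 15 alveolar type 2 markers. In whole lung, more cells of a type and more RNA per cell cannot be told apart. The part of these cells in the cathepsin values was not tested, and the results that rest on the array are given with and without it.

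Ctsk had the largest difference between groups. Its log2 levels were 7.74, 11.58, 8.45, 7.22 and 7.33 in the 5 Marfan sildenafil lungs, in the order of their running numbers. They were 7.19, 8.18, 7.32, 7.44 and 7.16 in the 5 Marfan vehicle lungs. They were 7.30, 6.87, 7.18 and 7.46 in the 4 wild-type sildenafil lungs, and ran from 7.11 over a median of 7.26 to 7.68 in the 6 wild-type vehicle lungs. Marfan sildenafil 8, 9 and 10 and Marfan vehicle 21 exceeded every wild-type lung, while the remaining Marfan lungs overlapped with the wild-type groups.

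Under sildenafil, Ctsk was 1.26 ± 0.52 (SE) higher in Marfan than in wild-type lungs (limma, unadjusted p = 0.0224, adjusted p = 1.00 over all genes). Without Marfan sildenafil 9 the difference was 0.48 ± 0.22 (unadjusted p = 0.0342, adjusted p = 1.00). It did not pass the threshold of 0.05 for the adjusted p either way. Under vehicle the difference between Marfan and wild-type was 0.14 ± 0.47, and 0.14 ± 0.19 with the spread estimated without that array. The interval of the latter ran from -0.24 to 0.52. Averaged over both treatments and without that array, Ctsk was 0.31 ± 0.14 higher in Marfan lungs (unadjusted p = 0.0380, adjusted p = 0.916), and with it 0.70 ± 0.35 higher (unadjusted p = 0.0558, adjusted p = 0.918). The means without the array followed the order 7.68 in Marfan sildenafil, 7.46 in Marfan vehicle, 7.32 in wild-type vehicle and 7.20 in wild-type sildenafil lungs, and neighbours in this order overlapped in range.

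Beside this, the mean log2 level of the 18 lipid-laden macrophage markers was 7.18 to 7.65 in the other 4 Marfan sildenafil lungs, against 6.87 to 7.31 in the wild-type sildenafil lungs. It was 9.90 on Marfan sildenafil 9. Its part in the Ctsk difference was not tested.

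Ctsb showed the smallest unadjusted p of the family for sildenafil in Marfan lungs and for sildenafil averaged over both genotypes. In wild-type lungs with all arrays Ctsh had the smallest (limma, unadjusted p = 0.122, against 0.205 for Ctsb). Ctsb was 11.28, 12.14, 11.12, 11.13 and 11.08 in Marfan sildenafil lungs, against 10.55, 11.13, 11.06, 10.89 and 11.07 in Marfan vehicle lungs. It was 11.06, 10.93, 11.15 and 11.02 in wild-type sildenafil lungs, against 10.60 to 11.00 with a median of 10.84 in wild-type vehicle lungs. Both sildenafil groups lay towards the upper end, and both overlapped with their vehicle group.

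Ctsb was 0.41 ± 0.15 higher in Marfan sildenafil than in Marfan vehicle lungs, a factor of 1.33 (limma, unadjusted p = 0.0116, adjusted p = 0.711). Without Marfan sildenafil 9 it was 0.21 ± 0.10 (unadjusted p = 0.0460, adjusted p = 0.715). Between the wild-type groups it was 0.20 ± 0.15 higher under sildenafil (adjusted p = 0.742). Averaged over both genotypes and without that array, the sildenafil difference of Ctsb was 0.21 ± 0.07 (unadjusted p = 0.00696, adjusted p = 0.170). With all arrays it was 0.31 ± 0.11 (adjusted p = 0.271). None of these passed. The difference between the sildenafil effect in Marfan and that in wild-type lungs was 0.013 ± 0.14 without the array, with an interval from -0.28 to 0.30, and 0.21 ± 0.22 with it, with an interval from -0.23 to 0.65.

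Ctsa, which encodes the carboxypeptidase that also stabilises lysosomal beta-galactosidase and neuraminidase, followed Ctsb. It was 9.53, 10.54, 9.46, 9.54 and 9.34 in Marfan sildenafil lungs, against 8.52, 9.55, 9.60, 9.16 and 9.51 in Marfan vehicle lungs. It was 9.69, 9.25, 9.50 and 9.30 in wild-type sildenafil lungs, against 8.85 to 9.52 with a median of 9.28 in wild-type vehicle lungs. Marfan vehicle 20 had the lowest value of all lungs, followed by wild-type vehicle 18 at 8.85. The sildenafil difference in Marfan lungs was 0.41 ± 0.20 (limma, unadjusted p = 0.0477, adjusted p = 0.739), and 0.20 ± 0.16 without Marfan sildenafil 9 (adjusted p = 0.862). Ctsa also moved with array brightness within groups, at r = 0.604 without that array.

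**Figure D2:**
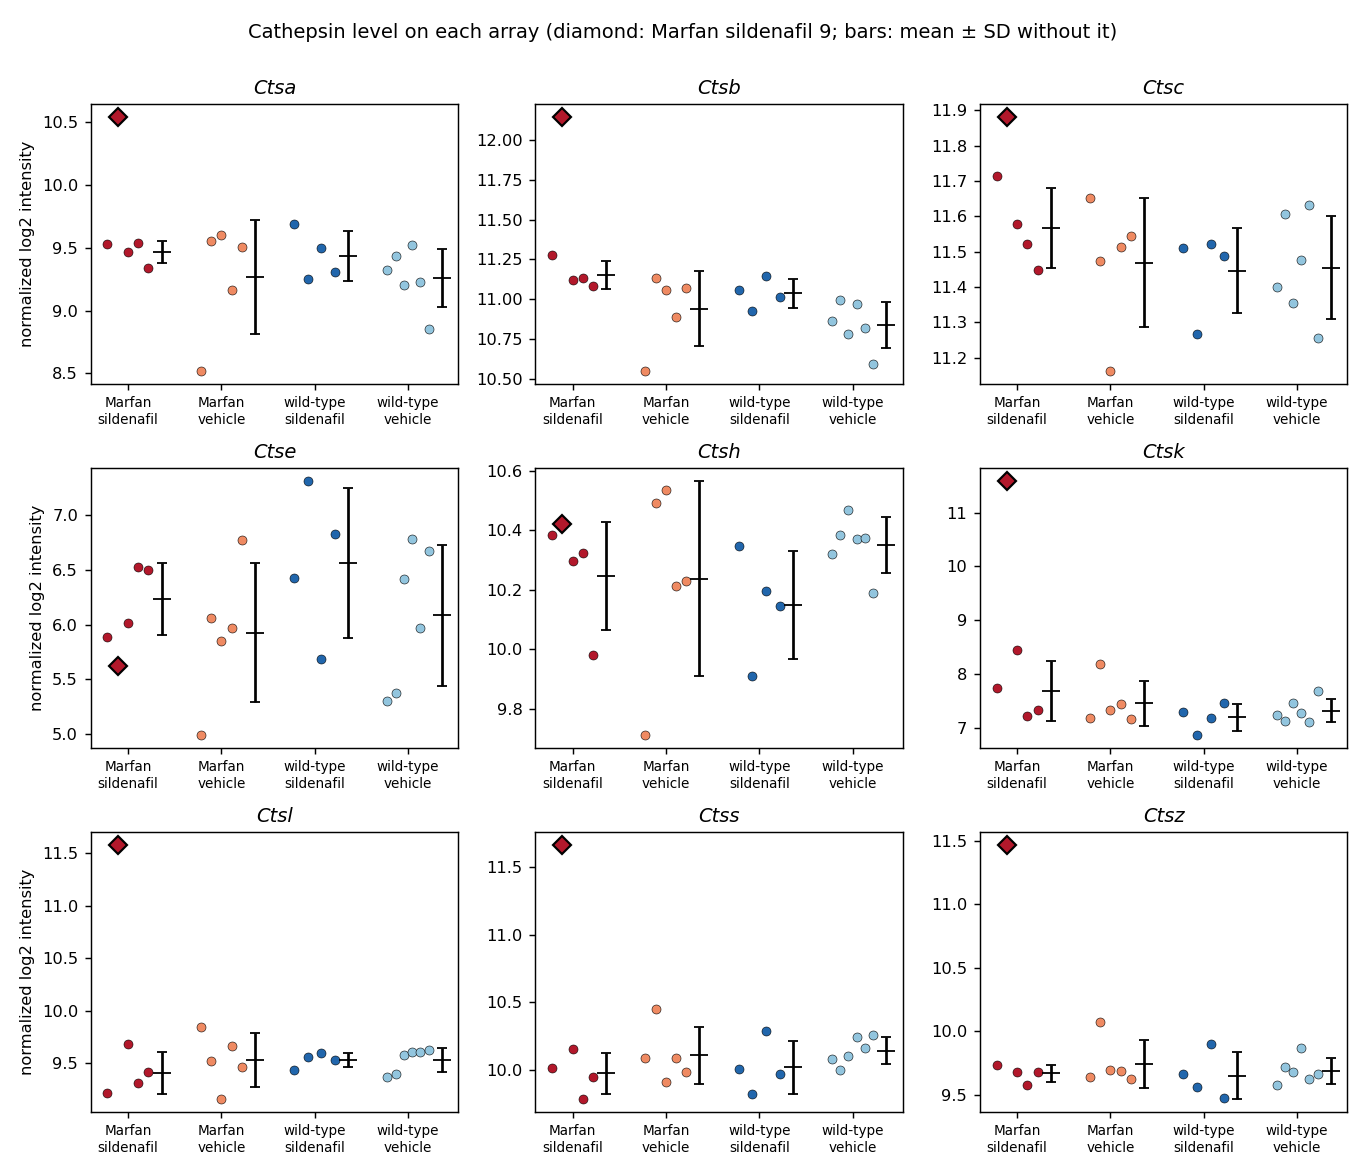
Normalized log2 intensity of each measured cathepsin on the 20 arrays, by group, with 1 point per array, the array Marfan sildenafil 9 as a diamond, and the mean ± SD of each group without that array as a bar. The diamond is the highest point for 7 of the 9 genes. Apart from it, the groups set against each other in the 4 comparisons of 2 groups overlap for every gene. Marfan sildenafil and wild-type vehicle lungs were not compared.

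The third carboxypeptidase, Ctsz, was 9.74, 11.46, 9.68, 9.58 and 9.68 in Marfan sildenafil lungs, against 9.64, 10.08, 9.69, 9.69 and 9.63 in Marfan vehicle lungs. It was 9.66, 9.56, 9.90 and 9.48 in wild-type sildenafil lungs, against 9.58 to 9.87 with a median of 9.67 in wild-type vehicle lungs. Apart from Marfan sildenafil 9, only Marfan vehicle 21 exceeded 10. Its sildenafil difference in Marfan lungs was 0.28 ± 0.23 with all arrays and -0.08 ± 0.10 without that array, so its sign rested on 1 lung.

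Among the endopeptidases, Ctss behaved in the same way. It was 10.02, 11.66, 10.15, 9.79 and 9.95 in Marfan sildenafil lungs, against 10.09, 10.45, 9.92, 10.09 and 9.99 in Marfan vehicle lungs. It was 10.01, 9.82, 10.29 and 9.97 in wild-type sildenafil lungs, against 10.01 to 10.26 with a median of 10.14 in wild-type vehicle lungs. Its sildenafil difference in Marfan lungs was 0.20 ± 0.22 with all arrays and -0.13 ± 0.11 without Marfan sildenafil 9.

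Ctsl was 9.22, 11.57, 9.68, 9.32 and 9.42 in Marfan sildenafil lungs, against 9.85, 9.52, 9.16, 9.67 and 9.46 in Marfan vehicle lungs. The wild-type lungs were close together, at 9.44, 9.56, 9.60 and 9.53 under sildenafil and 9.37 to 9.62 with a median of 9.59 under vehicle. Without Marfan sildenafil 9 the sildenafil difference in Marfan lungs was -0.12 ± 0.11, with an interval from -0.35 to 0.11, against 0.31 ± 0.27 with it.

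Of the aminopeptidases, Ctsc was 11.71, 11.88, 11.58, 11.52 and 11.45 in Marfan sildenafil lungs, against 11.65, 11.47, 11.16, 11.51 and 11.54 in Marfan vehicle lungs. It was 11.51, 11.27, 11.52 and 11.49 in wild-type sildenafil lungs, against 11.26 to 11.63 with a median of 11.44 in wild-type vehicle lungs. Without Marfan sildenafil 9 its largest difference over the 4 comparisons of 2 groups was 0.12 ± 0.10, between Marfan and wild-type lungs under sildenafil, and with that array the same difference was 0.18 ± 0.11.

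Ctsh was 10.38, 10.42, 10.30, 10.32 and 9.98 in Marfan sildenafil lungs, against 9.71, 10.49, 10.54, 10.21 and 10.23 in Marfan vehicle lungs. It was 10.35, 9.91, 10.20 and 10.14 in wild-type sildenafil lungs, against 10.19 to 10.47 with a median of 10.37 in wild-type vehicle lungs. The groups overlapped, and its difference of -0.20 ± 0.13 with sildenafil in wild-type lungs did not pass (limma, adjusted p = 0.655).

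Ctse, known from gastric and immune cells, was the most variable member. It was 5.88, 5.62, 6.02, 6.53 and 6.50 in Marfan sildenafil lungs, against 4.99, 6.06, 5.85, 5.97 and 6.78 in Marfan vehicle lungs. It was 6.42, 7.31, 5.69 and 6.83 in wild-type sildenafil lungs, against 5.30 to 6.78 with a median of 6.20 in wild-type vehicle lungs. Its SD within groups was 0.60 over the 19 arrays without Marfan sildenafil 9, against 0.14 to 0.37 for the other members. Its largest difference, 0.48 ± 0.33 with sildenafil in wild-type lungs, did not pass (limma, adjusted p = 0.700).

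Over the whole family, no cathepsin passed the adjusted threshold in any of the 7 comparisons, with or without Marfan sildenafil 9. With all 20 arrays no gene at all passed in any of them (0% of 19505). Without that array, 0.0103% of genes passed between Marfan and wild-type lungs under vehicle, 0.379% passed for sildenafil averaged over genotypes, and 0% in the other 5 comparisons. At an unadjusted p under 0.05 and with all arrays, 0 members passed for Marfan against wild-type under vehicle, where 6.26% of all genes did. Under sildenafil 1 member, Ctsk, passed (3.89% of genes). Between sildenafil and vehicle, 2 members, Ctsa and Ctsb, passed in Marfan lungs (6.71% of genes) and 0 in wild-type lungs (9.1% of genes). With that array left out, an unadjusted p under 0.05 was found for Ctsk under sildenafil (3.22% of genes) and Ctsb between the Marfan groups (6.87% of genes). No member had one for Marfan against wild-type under vehicle (7.81% of genes) or for sildenafil in wild-type lungs (11.1% of genes).

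In none of these 4 comparisons did the groups fail to overlap for any member, whereas some of all genes did: 0.261% higher and 0.267% lower for Marfan against wild-type under vehicle, and 0.677% and 0.749% under sildenafil. For sildenafil against vehicle these were 0.385% and 0.492% in Marfan lungs and 1.42% and 1.3% in wild-type lungs. With Marfan sildenafil 9 left out, no member was free of overlap either, where 1.35% and 1.31% of genes were for Marfan against wild-type under sildenafil, and 0.897% and 1.1% for sildenafil in Marfan lungs.

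The size of the family's median difference depended on 1 array. In Marfan lungs all 9 members were higher under sildenafil than under vehicle, where 48.4% of all genes were, and the median difference was 0.28. Without Marfan sildenafil 9 it was 6 of 9 members, where 49.8% of all genes were higher, with a median of 0.10. Between Marfan and wild-type lungs under sildenafil, 8 of 9 members were higher with a median of 0.29, where 48.8% of all genes were higher. Without the array it was 6 of 9 with a median of 0.03, where 49.4% of all genes were higher. Under vehicle 5 of 9 members were higher in Marfan lungs with a median of 0.0079, where 48.8% of all genes were higher. With sildenafil in wild-type lungs 3 of 9 were higher with a median of -0.0078, where 49.6% of all genes were higher. The medians of these last 2 comparisons depended on the scaling. On the deposited values they were 0.23 and 0.25, with median centring -0.14 and -0.14, and with array brightness as a covariate 0.16 and 0.26. The comparisons share arrays, so their values are only set side by side. Median differences over all genes lay between -0.0067 and -0.0018 in the 4 comparisons with all arrays.

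**Figure D3:**
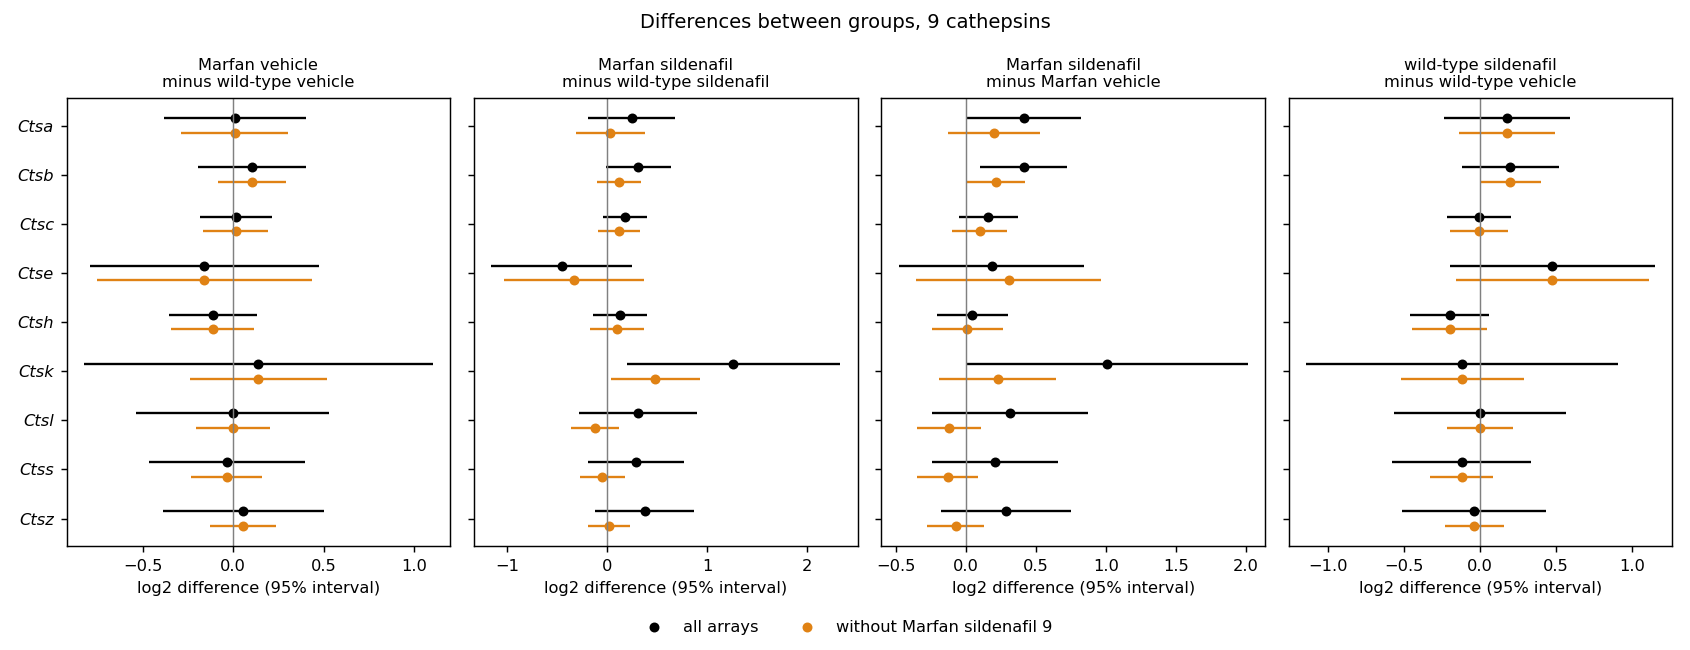
Log2 differences of the 9 cathepsins with 95% intervals from the fit over all genes, in the 4 comparisons of 2 groups, with all arrays in black and without Marfan sildenafil 9 in orange. In the comparisons that involve Marfan sildenafil lungs, leaving out the array moves Ctsk to 0.48 and 0.23 and turns the sign of Ctsl and Ctss in both and of Ctsz in sildenafil against vehicle.

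Other genes of the lysosome gave the surroundings of these values, from lists of related genes. Of 40 hydrolases other than cathepsins, 1 passed in 1 comparison: Tpp1, the tripeptidyl peptidase of lysosomes, was 0.40 ± 0.09 higher with sildenafil averaged over genotypes and without Marfan sildenafil 9 (limma, adjusted p = 0.0344). Of all genes, 0.379% passed in that comparison without the array. With all arrays Tpp1 was 0.45 ± 0.10 higher (limma, adjusted p = 0.0935), and 0% of all genes passed. Sgsh, a sulfatase that degrades heparan sulfate, was 0.42 ± 0.10 higher in the same comparison without the array and did not pass (adjusted p = 0.0567). Over this list the median was 0.08, with 26 of 40 higher. In wild-type lungs Sgsh was 0.65 ± 0.14 and Tpp1 0.43 ± 0.14 higher with sildenafil, and neither passed there (adjusted p = 0.266 and 0.380).

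None of the remaining lysosomal lists had a gene that passed in the 4 comparisons of 2 groups, with or without the array. These lists held 29 membrane genes, 24 proton pump subunits, 26 genes of sorting and regulation, 22 cystatins and related inhibitors, and the 15 other cathepsins and relatives. Between Marfan and wild-type lungs under vehicle, the sorting receptors Sorl1 and Sort1 were 0.45 ± 0.12 and 0.36 ± 0.10 higher, and did not pass (limma, adjusted p = 0.610 and 0.615). Among the inhibitors in that comparison, Stfa1, a stefin, was -0.48 ± 0.19 (adjusted p = 0.789). The median over the inhibitors there was -0.12. Ctsf, the other broadly known cysteine cathepsin on the lists, was -0.32 ± 0.14 with sildenafil in Marfan lungs (adjusted p = 0.725).

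Among the 19 arrays without Marfan sildenafil 9, some cathepsins varied together from lung to lung. Each value was first taken as its deviation from the mean of its group, and the 36 pairs of members were correlated with permutation within groups (100000 resamples, two-sided, Benjamini-Hochberg over the 36 pairs). Ctsa and Ctsb were closest, with Pearson's r = 0.938 (permutation p = 8e-05, adjusted 0.00288) and Spearman's rho = 0.877 (adjusted 0.00144). Without the 2 arrays farthest from the median of Ctsa, their r was 0.833. Ctsh joined them, with r = 0.854 to Ctsa (adjusted 0.00342, rho = 0.716) and 0.793 to Ctsb (adjusted 0.00972, rho = 0.583). A second set held Ctss with Ctsz at r = 0.779 (permutation p = 0.0049, adjusted 0.0353, rho = 0.6246) and Ctss with Ctsk at r = 0.719 (permutation p = 0.0032, adjusted 0.0288, rho = 0.644). Within it, Ctsk with Ctsz was at r = 0.433 and did not pass (permutation, adjusted 0.305).

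These were the 5 pairs that passed by r, and 2 of them, Ctsa with Ctsb and Ctsa with Ctsh, passed by rho as well. Without the 2 arrays farthest from the median of the first gene, r was 0.708 for Ctsa with Ctsh, 0.585 for Ctsb with Ctsh, 0.483 for Ctss with Ctsz and 0.508 for Ctsk with Ctss, so each was lower without them. Marfan vehicle 21 was the highest of the 19 for both Ctss and Ctsz. For the first set Marfan vehicle 20 was the lowest of the 19 in Ctsa, Ctsb and Ctsh.

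Ctsl went the other way from the first set, with r = -0.659 to Ctsa, -0.619 to Ctsb and -0.600 to Ctsh, none of which passed (permutation, adjusted 0.0797, 0.139 and 0.237). The array brightness before normalization moved with these genes, at r = 0.604 for Ctsa, 0.545 for Ctsb, 0.499 for Ctsh and -0.611 for Ctsl. In the second set r with brightness was -0.481 for Ctss, -0.299 for Ctsk and -0.097 for Ctsz. With brightness removed from both genes, Ctsa with Ctsb was 0.912, Ctss with Ctsz was 0.839 and Ctsk with Ctss was 0.687, while Ctsl with Ctsa was -0.460. Every pair between the first and the second set was then higher. These pairs ran from 0.362 for Ctsb with Ctsk to 0.6655 for Ctsb with Ctsz, which was 0.503 before. The part of brightness in the remaining pattern was not tested.

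**Figure D4:**
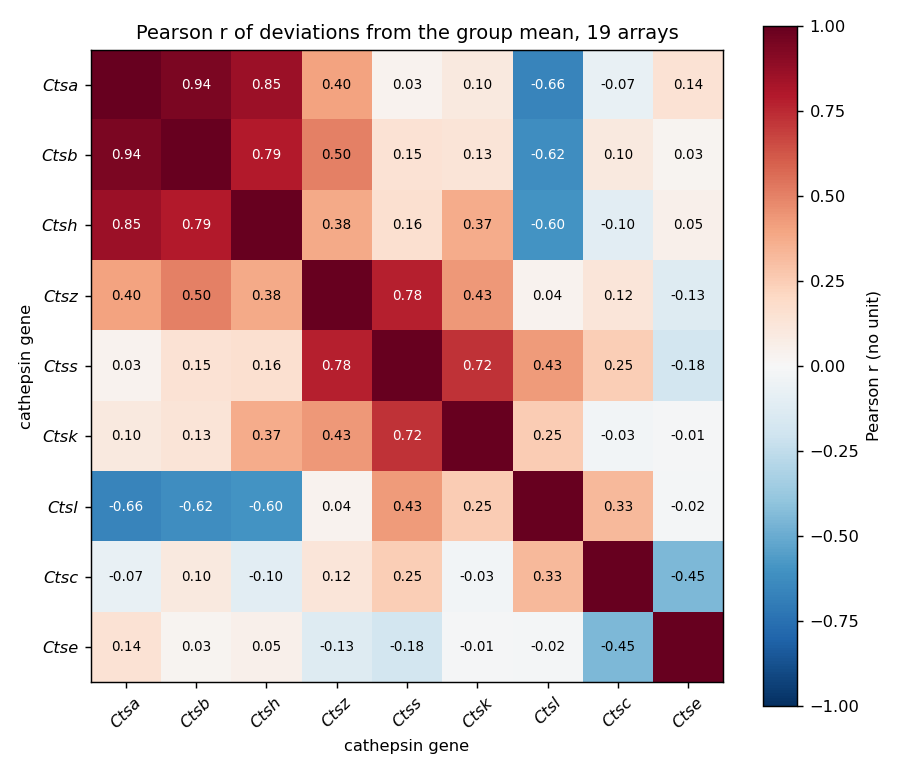
Pearson's r between the cathepsins over the 19 arrays without Marfan sildenafil 9, after subtraction of each group's mean, with red for positive and blue for negative r. Ctsa, Ctsb and Ctsh form a block with r of 0.793 to 0.938, Ctss is close to Ctsz and Ctsk, and Ctsl is negative to the first block.

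Ctsk and Ctss lie next to each other on mouse chromosome 3, with 1 annotated gene, which codes for no protein, between them (RefSeq, GRCm38.p6). The 250 bases before the start of each, on the plus strand, are shown because the pair varied together. Capitals mark GAGGAAG or its reverse complement, the core bound by PU.1, a factor of myeloid cells.
Ctsk, chr3:95498960-95499209: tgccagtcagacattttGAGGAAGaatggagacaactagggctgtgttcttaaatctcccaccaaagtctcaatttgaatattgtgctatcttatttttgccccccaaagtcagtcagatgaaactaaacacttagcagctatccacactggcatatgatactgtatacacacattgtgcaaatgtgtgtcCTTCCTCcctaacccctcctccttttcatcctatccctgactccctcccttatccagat
Ctss, chr3:95526536-95526785: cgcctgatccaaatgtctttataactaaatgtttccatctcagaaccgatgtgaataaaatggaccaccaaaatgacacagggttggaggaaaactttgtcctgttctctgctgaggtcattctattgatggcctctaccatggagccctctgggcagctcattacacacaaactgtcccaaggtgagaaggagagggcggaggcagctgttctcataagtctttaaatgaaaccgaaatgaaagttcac

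Ctsk held 2 matches, and the match of Ctss began at its last base shown and ran past the start. Promoter windows of 300 bases from RefSeq were used for 7 of the 10 genes, 8 windows in all, and those of Ctsb, Ctse and Ctsh were not used here. Of the 8, 3 held this motif (Ctsc, Ctsk and Ctss), as did 13.6% of all 32851 windows. The motif CACGTG, bound by TFEB and its relatives that drive lysosomal genes, stood in 3 windows (Ctsa, Ctsd and Ctsl), against 7.15% of all windows and 23.7% of 76 windows of other lysosomal genes. Its longer form TCACGTGA, which contains the shorter one, stood in windows of Ctsa and Ctsd, against 0.974% of all windows and 13.2% of the windows of other lysosomal genes. The AP-1 motif TGANTCA was in 0 of the 8, against 7.81%. All were searched on both strands, and a match describes letters only.

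For Ctsa and Ctsd, 30 bases around the match nearest before the start used for the window are shown, with CACGTG in capitals. For Ctsa this start lies inside the RefSeq gene span and not at its outer end, and the same holds for the window of Ctsl with the motif.
Ctsa, chr2:164833743-164833772, plus strand: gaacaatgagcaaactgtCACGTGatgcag
Ctsd, chr7:142387908-142387937, minus strand: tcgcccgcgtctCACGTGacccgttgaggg

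The macrophage markers followed part of the family among the 19 arrays too. Over 18 relations (9 members by 2 marker lists, permutation within groups, Benjamini-Hochberg over the 18), Ctsz went with the mean of the 18 alveolar macrophage markers at r = 0.844 (permutation p = 8e-05, adjusted 0.00144) and rho = 0.832 (adjusted 0.00216). Without the 2 arrays farthest from the median of the markers, r was 0.753. Ctsk went with the lipid-laden macrophage markers at r = 0.815 (permutation p = 0.00195, adjusted 0.0175) and rho = 0.749 (adjusted 0.00981), and at 0.613 without the 2 farthest arrays. Ctss went with the same markers at r = 0.765 (adjusted 0.0232), but not by rho = 0.549 (adjusted 0.0946), and at 0.545 without the 2 farthest arrays.

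No other relation passed, and for Ctsc, Ctse and Ctsl r lay between -0.218 and 0.207 with either list. Marfan vehicle 21 had a lipid-laden marker level of 7.89 and Marfan sildenafil 10 one of 7.65, the 2 highest of the 19, and these were also the 2 lungs with the most Ctsk among the 19. With brightness removed, r was 0.867 for Ctsz, 0.827 for Ctsk and 0.823 for Ctss with the markers named.

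**Figure D5:**
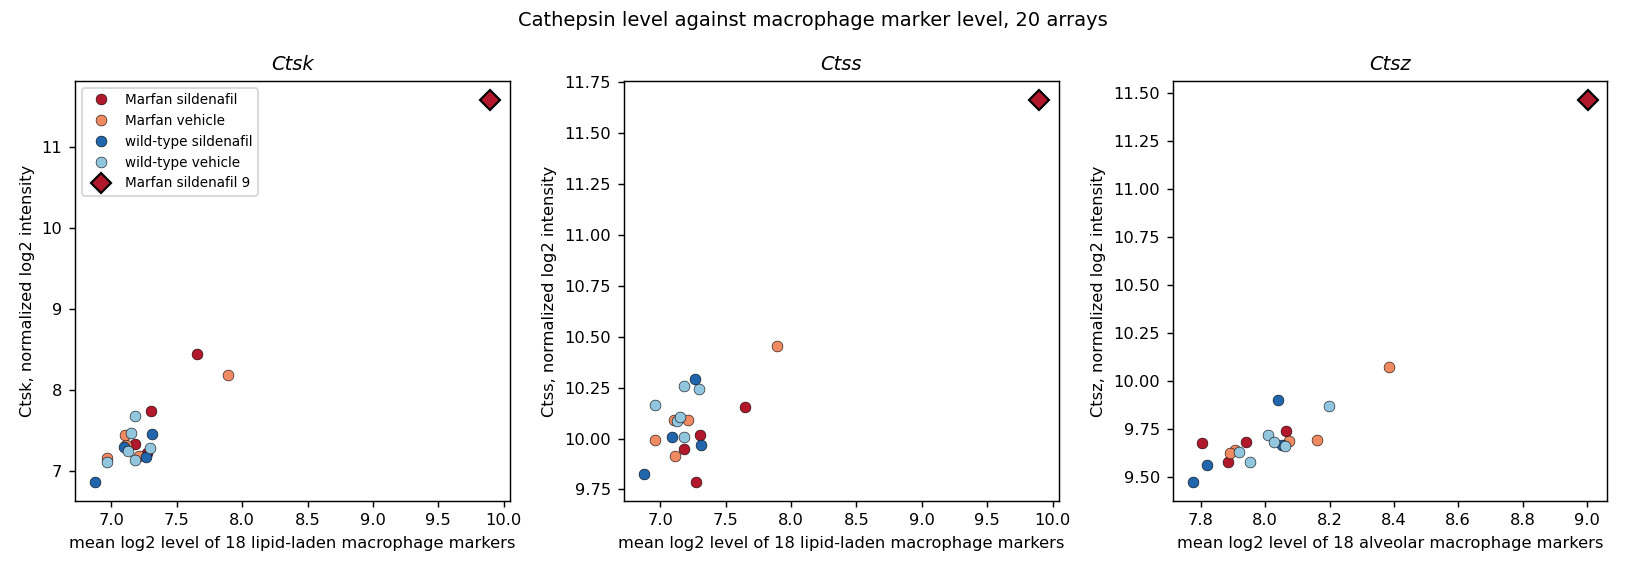
Normalized log2 intensity of Ctsk and Ctss against the mean log2 level of 18 lipid-laden macrophage markers, and of Ctsz against that of 18 alveolar macrophage markers, with 1 point per array coloured by group and Marfan sildenafil 9 as a diamond. The diamond lies at 9.90 and 11.58 in the panel of Ctsk, and Marfan sildenafil 10 and Marfan vehicle 21 are the next highest points there.

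By the largest r among the brighter 50% of genes (9751) over the same 19 arrays, the gene most like Ctsk was Nsa2 (r = 0.817), followed by the macrophage elastase gene Mmp12 (r = 0.816) and Psmb7 (r = 0.802). For Ctsz these were P2ry6 (r = 0.8615) and the chemokine genes Ccl17 (r = 0.839) and Ccl22 (r = 0.8325), and for Ctss they were led by Plac8 (r = 0.888). Ctsa and Ctsb shared the galectin gene Lgals9 (r = 0.9565 and 0.923). Lgals9 moved with array brightness at r = 0.677, beside 0.604 for Ctsa and 0.545 for Ctsb, and the part of brightness in this likeness was not tested. Ctsh was closest to Decr1 (r = 0.903), Ctsc to Hif1a (r = 0.896), Ctsl to Appl1 (r = 0.8805) and Ctse to AB124611 (r = 0.854). These are the highest of many values and are given as a description.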

How the data were processed

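Total RNA of mouse lung, 700 pg per sample and of integrity number above 8.5, was amplified with the GeneChip Pico kit and hybridised to Affymetrix arrays, per the labels' protocols. The deposited log2 values were made by the authors with Affymetrix Expression Console and RMA, per the submitters' processing notes; the sources used here give no versions. Groups came from the titles, since the treatment text is the same for every sample. Of 24 samples, 4 whose titles say that they failed the quality check have empty columns and were not used. The replicates are separate samples by their labels, and p-values measure the spread between them.

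From these values, 22206 transcript probe sets were quantile-normalized over 20 arrays, and each gene was given its probe set with the highest mean. The 4 groups were fitted together with limma 3.58.1 in R 4.3.3 (eBayes with a variance trend, 16 residual degrees of freedom, 15 without Marfan sildenafil 9), with Benjamini-Hochberg adjustment over all 19505 genes in each of 7 comparisons. The code was tested on simulated data. Correlations used Python 3.11.15 and scipy 1.17.1. Members and gene lists were chosen with earlier results of these data known. Named genes were all members and, of each other list, up to 3 with the smallest unadjusted p or the largest distance on Marfan sildenafil 9; for each member the 3 genes most like it were considered. Alternatives were other scalings, covariates, weights, filters and fits, and leaving out each array.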

Additional observations from a re-analysis of the deposited data

Results flagged for a closer look

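Within groups of 4 to 6 arrays, 36 sets of values (9 cathepsins by 4 groups) were checked for an array whose gap to its nearest neighbour takes up most of the range of the group, by Dixon's 95% critical value. Chance flags about 1 in 20 independent sets; these share arrays and co-varying genes, so the 10 found are given as a description and not read against that rate. 6 of them were on Marfan sildenafil 9: Ctsa at 10.54, Ctsb at 12.14, Ctsk at 11.58, Ctsl at 11.57, Ctss at 11.66 and Ctsz at 11.46 log2 units. Marfan vehicle 21 was set apart upwards by Ctsk at 8.18 and by Ctsz at 10.08. Downwards, Ctsc stood apart at 11.27 on wild-type sildenafil 4, and Ctsh at 9.98 on Marfan sildenafil 12. The difference between the sildenafil effects in Marfan and wild-type lungs passed for no cathepsin (limma, lowest adjusted p = 0.984 with all arrays).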

How the results depend on the processing

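No paired analysis was possible because the running numbers are unique to each array and the groups share none. The number of cathepsins past the adjusted threshold was 0 wherever it was computed, under 9 alternative settings and with each of the 20 arrays left out. This covered all 7 comparisons, except that a fit of only the groups compared was run for the 4 comparisons of 2 groups. The lowest adjusted p was 0.116 (limma, Ctse with sildenafil in wild-type lungs, on the deposited values). It was sought among all members in those 4 comparisons, and among Ctsa, Ctsb and Ctsk alone in the others. The median distance of the cathepsins on Marfan sildenafil 9 was 1.48 with median centring, against 1.12 as reported; its cause was not tested. On the deposited values the median of all genes shifted by 0.25 for Marfan against wild-type under vehicle and by 0.28 for sildenafil in wild-type lungs.

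As reported with all arrays, Ctsl was 0.31 for sildenafil in Marfan lungs and Ctsh was -0.20 for sildenafil in wild-type lungs. These and other differences, many of them nearer to 0, changed sign under some settings, and the cause was not tested. On the deposited values these were, for Marfan against wild-type under vehicle, Ctse at 0.23, Ctsh at 0.12, Ctsl at 0.23 and Ctss at 0.18, and, for sildenafil in wild-type lungs, Ctsc at 0.18, Ctsh at 0.057, Ctsk at 0.25, Ctsl at 0.29, Ctss at 0.13 and Ctsz at 0.25. With median centring, for Marfan against wild-type under vehicle, they were Ctsa at -0.10, Ctsb at -0.072, Ctsc at -0.20 and Ctsz at -0.079. With array brightness as a covariate they were Ctsa at -0.057, Ctsl at 0.61 and Ctss at 0.43 in that comparison, and Ctsc at 0.047, Ctsk at 0.90, Ctsl at 0.65, Ctss at 0.37 and Ctsz at 0.37 for sildenafil in wild-type lungs. With 3 Y-linked genes as a covariate it was Ctsl at 0.0087 for Marfan against wild-type under vehicle. With array weights they were Ctsa at -0.0145, Ctse at 0.091 and Ctsl at 0.043 in that comparison, Ctsl at -0.037 for Marfan against wild-type under sildenafil, Ctsl at -0.050 and Ctss at -0.067 for sildenafil in Marfan lungs, and Ctsl at 0.030 for sildenafil in wild-type lungs.

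Leaving out each array in turn gave these ranges where a sign changed. For Marfan against wild-type under vehicle they were -0.075 to 0.20 for Ctsa, -0.031 to 0.091 for Ctsc, -0.37 to 0.075 for Ctse, -0.19 to 0.017 for Ctsh, -0.042 to 0.21 for Ctsk, -0.081 to 0.090 for Ctsl, -0.12 to 0.013 for Ctss and -0.028 to 0.091 for Ctsz. For Marfan against wild-type under sildenafil they were -0.12 to 0.47 for Ctsl and -0.046 to 0.42 for Ctss. For sildenafil in Marfan lungs they were -0.051 to 0.40 for Ctse, -0.087 to 0.12 for Ctsh, -0.12 to 0.47 for Ctsl, -0.13 to 0.34 for Ctss and -0.076 to 0.40 for Ctsz. For sildenafil in wild-type lungs they were -0.047 to 0.052 for Ctsc, -0.033 to 0.031 for Ctsl and -0.12 to 0.019 for Ctsz. The sildenafil difference of Ctsb averaged over genotypes kept its sign in all of these, at 0.21 without Marfan sildenafil 9 to 0.34 without Marfan sildenafil 12.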
